A study of Homo sapiens with 62 samples.

Results

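Metalloproteases are zinc-dependent enzymes that cut extracellular matrix and signalling proteins outside the cell, and tissue inhibitors of metalloproteinases (TIMPs) bind and block them. The 10 genes described here were chosen by name from the 29794 genes in the count tables: the secreted matrix metalloproteinases MMP1, MMP7, MMP10 and MMP13, the membrane-anchored MMP14, the metzincin proteases PAPPA and ADAMTS1, and the inhibitors TIMP1, TIMP2 and TIMP3. The list was drawn up with earlier results of these data in view and was chosen by the higher T>C read level of MMP1 and PAPPA after KLF5 loss in T3M-4 cells. Values of that contrast are therefore given as a description with no test for any of the 10 genes.

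Secreted MMPs are made as inactive proenzymes and become active when their propeptide is removed. Collagenases (MMP1, MMP13) cut fibrillar collagen, the stromelysin MMP10 and the matrilysin MMP7 cut many non-collagen matrix proteins and can activate other proenzymes, and MMP14 cleaves pericellular collagen and, with TIMP2 as an adaptor, activates proMMP2 at the cell surface. PAPPA cleaves insulin-like growth factor binding proteins, chiefly IGFBP4, and so frees the growth factor, while ADAMTS1 cleaves the proteoglycans aggrecan and versican. In pancreatic ductal adenocarcinoma (PDAC), a tumor with a dense collagen stroma, both the tumor cells and the stromal cells can make these proteins.

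New RNA was measured by SLAM-seq in the PDAC lines AsPC-1 and T3M-4: cells take up 4-thiouridine (4sU), which after alkylation is read as C, so reads with T>C conversions come from transcripts made in the labelling window. All cells, controls included, carried the genotype FKBP12-F36V-FLAG-KLF5_sgEndogenousKLF5, that is, a lentiviral degron-tagged KLF5 in Cas9 cells whose own KLF5 gene was targeted by guide RNA. They were grown as selected pools. 4sU was present for the last 2 h. The dTAG groups received the degrader dTAGv-1 for 4 h and the NEG groups its inactive analog dTAGv-1-NEG, with 10 and 10 libraries in AsPC-1 and 4 and 4 in T3M-4. CB6644, an inhibitor of the RUVBL1/2 ATPases, was compared with the solvent DMSO at 4 h in AsPC-1 (5 and 5 libraries) and T3M-4 (4 and 4), and at 12 h in AsPC-1 (4 and 4). NVP2, an inhibitor of the transcription kinase CDK9, was given for 4 h (4 libraries per line) and shared the 4 h DMSO libraries with CB6644. Libraries are named below by experiment and library number, so that 3.2 is the second library of experiment 3. Some libraries of a group may be technical repeats of 1 culture, so p-values measure the spread between libraries. In such bulk libraries, fewer cells and less RNA per cell cannot be told apart.

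The 42 AsPC-1 libraries held 2240998 to 18311982 T>C reads and 82676553 to 200298262 reads in all. The 20 T3M-4 libraries held 3714015 to 27982537 T>C reads and 111132257 to 244524608 in all. The share of all reads with a T>C conversion was 7.58 to 10.6% for AsPC-1 libraries without NVP2, 11 to 14.3% for those of T3M-4, and 1.35 to 2.80% for all libraries with it. Epithelial markers (EPCAM, KRT8, KRT18, KRT19, CDH1) summed to 938 to 10854 CPM (reads per 1000000 reads of the library, with library sizes scaled by the TMM method), while 6 fibroblast markers reached at most 19.1 CPM and 4 immune markers at most 26.2, with COL1A2 and CD3E at a median of 0 in both lines. Basal-like markers (TP63, KRT5, S100A2) summed to 1535 to 3668 CPM in T3M-4 and 10.0 to 57.0 in AsPC-1. KLF5 mRNA does not check the degradation, since the degrader acts on the protein. T>C reads of KLF5 stood at 1019 to 1193 CPM after dTAG against 515 to 619 in NEG in T3M-4, and at 135 to 192 against 71.5 to 143 in AsPC-1. These KLF5 values were scaled by plain T>C totals, without TMM. In AsPC-1, 5 libraries stood apart for the genes described here: dTAG 3.2, NEG 3.2, CB6644 12 h 2, DMSO 12 h 2 and NVP2 1.2 held 11 to 51 T>C reads summed over MMP10, MMP13, PAPPA, ADAMTS1 and TIMP3, against at most 2 in the other 37. The main T>C results of the members that used them are given with and without them. Results of related genes, of all reads and against batch 2 controls are given with them only.

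The genes of 4 of the proteases lie together. On chromosome 11 (GRCh38, GENCODE v44, minus strand), MMP7 at 102520508-102530750, MMP10 at 102770502-102780628, MMP1 at 102789401-102798160 and MMP13 at 102942995-102955732 fall within 435.2 kb, and 8.77 kb separates MMP10 from MMP1. MMP14 is at chr14:22836560-22849041, PAPPA at chr9:116153791-116402321, TIMP1 at chrX:47582408-47586789 and TIMP3 at chr22:32801705-32863041, all on the plus strand. ADAMTS1 at chr21:26835755-26845409 and TIMP2 at chr17:78852977-78925387 are on the minus strand. WTAPP1 overlaps MMP1 and MMP10 on the opposite strand, as do SYN1 for TIMP1, SYN3 for TIMP3 and antisense RNAs for PAPPA, and CEP295NL overlaps TIMP2 on the same strand. These overlaps are of whole genes, and overlap within the counted 3′UTR exons was not checked. Whether the counting used the strand is not given in the sources used here. It is therefore not known whether reads of these partners entered the members' counts.

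RefSeq promoter windows (GRCh38.p14, 250 bases before to 50 after the start) were given for 6 of the 10 genes: MMP7, MMP10, MMP14, PAPPA, TIMP1 and TIMP3. They were searched on both strands for the AP-1 motif TGANTCA, since MMP promoters are known AP-1 targets, and for GGGNGGG, the core of the GC-rich elements that KLF factors bind. Of 34943 promoters, 7.7% held the first and 54.1% the second. MMP7 and MMP10 each held 1 AP-1 motif, with its first base at -67 in both. The stretches are shown because both genes of the chromosome 11 cluster have the motif at the same distance from their start. Capitals mark the match.
MMP7 (chr11:102530797-102530825, minus strand): aaacactcaaaTGAGTCAcctatttccac
MMP10 (chr11:102780678-102780706, minus strand): aaacacatgcaTGAATCAtactgttggtg
Neither held GGGNGGG. The other 4 held no AP-1 motif and 2 (MMP14), 3 (TIMP1), 4 (TIMP3) and 5 (PAPPA, with overlapping matches counted) of the GC-rich motif. For PAPPA, which was higher after KLF5 loss in T3M-4, 1 of the 5 matches is shown, that at 16. For TIMP3 and MMP14, which had the opposite sign there, those at -76 and -66 are shown. MMP14 differed by only -0.37 (SE 0.27), TIMP3 differed between experiments, and TIMP1, not shown, also had a negative sign (-0.24, SE 0.38). The stretches are examples, and a relation of the motif to the response was not tested.
PAPPA (chr9:116153795-116153823, plus strand): catcttttgggGGGAGGGaattcagcgga
TIMP3 (chr22:32801618-32801646, plus strand): ttggtctgaggGGGCGGGccccaacagcc
MMP14 (chr14:22836508-22836536, plus strand): ggagggcactgGGGCGGGgacggaggaga
A match in these windows is a description of the letters and not a binding site.

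The lines differed in which of these genes they expressed. In DMSO at 4 h, MMP1, MMP10, MMP13, PAPPA, ADAMTS1 and TIMP3 had reads in every T3M-4 library and few or none in AsPC-1, MMP14 was higher in T3M-4, and MMP7, TIMP1 and TIMP2 were higher in AsPC-1. ADAMTS1 had 45.9 to 52.4 CPM of all reads in T3M-4 and 0 of its 32505 reads came from AsPC-1, which puts it at least 8951-fold higher in T3M-4 against a floor of 3 reads over the 5 AsPC-1 libraries, the 1-sided limit of a count of 0. The lower limit of the 2-sided 95% counting interval was 7280. MMP10 (2983 reads against 0) was at least 821-fold higher by the same floor, with a 2-sided lower limit of 668. For genes with a few AsPC-1 reads the ratio of read rates was 249 for MMP1 (18719 reads against 62; 95% counting interval 195 to 325), 3494 for MMP13 (8459 against 2; 967 to 28853), 1032 for PAPPA (2499 against 2; 286 to 8524) and 1002 for TIMP3 (6062 against 5; 429 to 3085). These intervals cover counting error only.

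MMP14 stood at 58.4 to 65.5 CPM of all reads in the T3M-4 libraries against 13.4 to 20.2 in those of AsPC-1, without overlap (log2 difference 1.85 by edgeR, SE 0.14, adjusted p = 2.8e-06). MMP7, the matrilysin of glandular epithelia, went the other way, with 0.656 to 2.55 CPM in T3M-4 against 21.6 to 54.5 in AsPC-1 (-4.54 by edgeR, SE 0.55, adjusted p = 5.64e-05). So did TIMP1, with 16.5 to 18.7 CPM in T3M-4 against 65.3 to 139.9 in AsPC-1 (-2.51, SE 0.22), and TIMP2, with 143 to 158 CPM in T3M-4 against 397 to 569 in AsPC-1 (-1.83, SE 0.15). All 10 members passed the threshold, 7 higher in T3M-4 and 3 in AsPC-1, where 55.7% of the 15464 genes tested did. MMP10, MMP13, PAPPA, ADAMTS1 and TIMP3, with 0 to 5 AsPC-1 reads, passed the count filter only through T3M-4. The list was also chosen on values in T3M-4. These counts were thus partly set in advance, and nothing is read from them. The lines were processed as separate experiments, so line and experiment cannot be told apart. Of 63 related genes on a fixed list (other MMPs, ADAM and ADAMTS proteases, inhibitors and regulators, and the PAPPA axis), 37 could be tested and 13 were higher in T3M-4 and 10 lower. Those of smallest p were STC2, MMP2, PAPPA2 and ADAMTS3, higher in T3M-4, and ADAMTS15 and IGFBP4, higher in AsPC-1. Of the PAPPA axis, 4 of 5 genes tested passed the threshold. The PAPPA inhibitors STC1 and STC2 and the related protease PAPPA2 were higher in T3M-4, as PAPPA was, while the substrate IGFBP4 was higher in AsPC-1 (-3.68, SE 0.31).

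**Figure D1:**
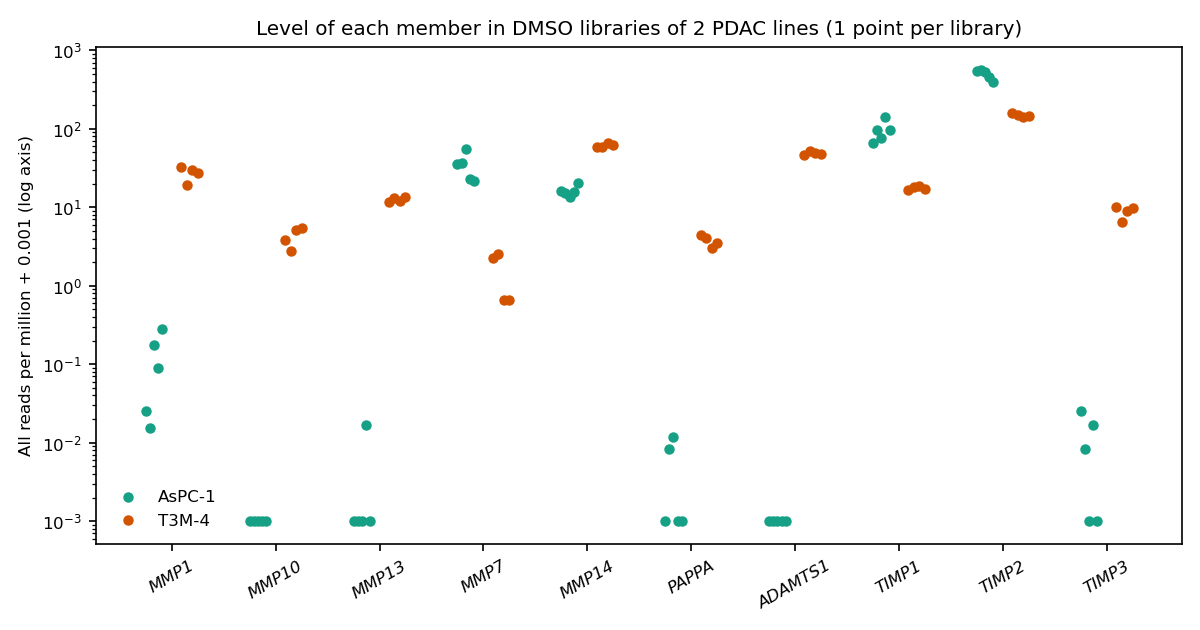
CPM of all reads (log axis, with 0.001 added so that libraries at 0 can be shown) of each of the 10 genes in 5 AsPC-1 and 4 T3M-4 libraries with DMSO for 4 h, 1 point per library. MMP10 and ADAMTS1 lie on the lowest line in all AsPC-1 libraries, and MMP7, TIMP1 and TIMP2 are the genes with AsPC-1 above T3M-4.

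The labelled share of a gene, the percentage of its reads that carried a T>C conversion, sorted the members over a wide range in the 8 T3M-4 control libraries (NEG and DMSO). ADAMTS1 stood highest with a median of 67.7% (60.5 to 76.2%), followed by PAPPA with 33.7% (28.1 to 37.9%) and TIMP3 with 19.3% (15.1 to 24.7%). The ranges of these 3 genes did not overlap each other or those of the rest, apart from MMP7, whose range reached into that of TIMP3. MMP14 (7.91%), MMP7 (7.78%, 3.79 to 16.3%), MMP13 (7.26%), TIMP2 (6.31%), MMP10 (5.85%) and MMP1 (4.92%, 4.49 to 8.66%) were neighbors with overlapping ranges. TIMP1 stood lowest with 2.94% (2.45 to 4.52%), in reach of the lowest libraries of MMP1, MMP7 and MMP10. In the 15 AsPC-1 control libraries at 4 h, the 4 genes with enough reads stood in the same order of medians, MMP14 (6.80%, 4.79 to 9.35%), MMP7 (5.41%, 3.90 to 9.67%), TIMP2 (4.05%, 3.25 to 4.89%) and TIMP1 (1.59%, 1.06 to 2.17%). Only the range of TIMP1 was separate from the other 3. A share depends on how many T bases the counted reads cover as well as on how much of the RNA is new, and no library without 4sU gave the background.

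**Figure D2:**
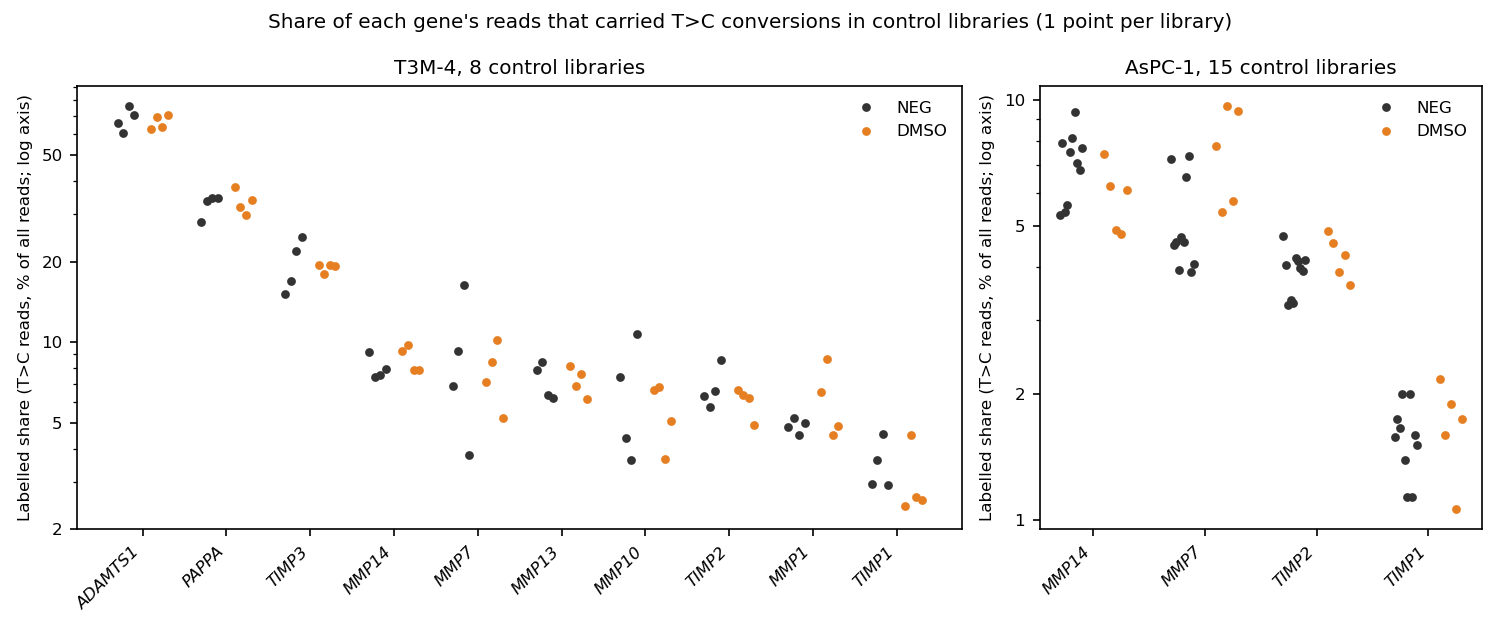
Labelled share (percentage of a gene's reads with a T>C conversion, log axis) of each gene in control libraries, 1 point per library, for 8 T3M-4 libraries (left) and 15 AsPC-1 libraries at 4 h (right), black for NEG and orange for DMSO. ADAMTS1, PAPPA and TIMP3 have the highest medians in T3M-4, with 1 MMP7 library (16.3%) inside the range of TIMP3, and TIMP1 has the lowest median in both lines.

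Counted reads lie in the 3′UTR, where the ATTTA pentamer marks AU-rich elements, known as binding sites for factors that shorten or lengthen an mRNA's life. The 3′UTR of the canonical transcript held 2 ATTTA in 268 bases for MMP7 (7.46 per kb), 3 for MMP1 (6.08 per kb), 6 in 1271 for MMP13 (4.72 per kb), 5 in 1824 for ADAMTS1 (2.74 per kb), 12 in 5705 for PAPPA (2.1 per kb), 7 in 3664 for TIMP3 (1.91 per kb) and 4 in 2690 for TIMP2 (1.49 per kb). MMP10, MMP14 and TIMP1 held 0. The median over 19195 3′UTRs was 1.55 per kb. The longer nonamer TTATTTATT occurred in 8.6% of them and among the members in PAPPA alone, in the stretch shown here with the nonamer in capitals. MMP7 and MMP1 had the densest 3′UTRs, while ADAMTS1 and PAPPA had the highest labelled shares in T3M-4. Among the genes with 0, TIMP1 had the lowest median share of the members, and MMP10 and MMP14 did not. Whether pentamer density bears on the labelled share was not tested.
PAPPA 3′UTR (chr9:116402034-116402062, plus strand, GRCh38): atagtaaactTTATTTATTaagaatgtca

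After degradation of KLF5 in T3M-4, new RNA of the collagenases MMP1 and MMP13, the stromelysin MMP10 and PAPPA was higher, and new RNA of TIMP2 was lower. Values are T>C CPM (T>C reads per 1000000 T>C reads, with TMM-scaled library sizes) in the order of libraries 1.1, 1.2, 2.1 and 2.2, and log2 differences are dTAG minus NEG with their SE. MMP1 had 12.0, 11.1, 10.7 and 11.6 T>C CPM in NEG and 35.3, 38.9, 37.8 and 38.8 after dTAG, a log2 difference of 1.72 (SE 0.17). Every dTAG library lay above every NEG library. PAPPA had 7.11, 10.1, 8.10 and 10.2 T>C CPM in NEG and 25.9, 24.0, 30.9 and 28.6 after dTAG (1.61, SE 0.21), again without overlap. MMP13, the other collagenase of the cluster, had 7.53, 8.83, 5.92 and 5.95 in NEG and 16.5, 21.6, 19.9 and 15.3 after dTAG (1.37, SE 0.23). MMP10 had 1.63, 1.21, 1.41 and 4.76 in NEG and 5.55, 5.75, 5.55 and 6.80 after dTAG (1.38, SE 0.47). Its NEG library 2.2 stood apart from the other 3, and without that library the difference was 2.06 (SE 0.35).

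These 4 genes differed more in new RNA than in total RNA. The labelled share of MMP1 went from 4.89 ± 0.288% (SD, n = 4) in NEG to 14.1 ± 0.634% after dTAG, that of MMP13 from 7.21 ± 1.13% to 15.5 ± 0.550%, that of MMP10 from 6.54 ± 3.23% to 13.8 ± 1.88%, and that of PAPPA from 32.7 ± 3.14% to 49.6 ± 5.74%. In all reads the log2 differences were 0.26 (SE 0.14) for MMP1, 0.45 (SE 0.22) for MMP10 and 0.34 (SE 0.17) for MMP13. PAPPA, with the second highest labelled share in controls, differed by 1.09 (SE 0.15) in all reads, from 3.54 ± 0.475 to 7.59 ± 0.223 CPM (SD, n = 4).

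The remaining proteases, ADAMTS1, MMP14 and MMP7, differed less. ADAMTS1 had 302, 281, 362 and 300 T>C CPM in NEG and 296, 450, 417 and 507 after dTAG (0.41, SE 0.20), and its labelled share was 68.2 ± 6.66% and 67.4 ± 5.32% (SD, n = 4). All reads of ADAMTS1 differed by 0.48 (SE 0.16), with 52.7 to 63.7 CPM in NEG and 68.9 to 98.1 after dTAG, without overlap. MMP14 had 35.9 to 63.8 T>C CPM in NEG and 24.7 to 49.6 after dTAG (-0.37, SE 0.27). MMP7 had 1.49, 1.98, 1.06 and 0.213 T>C CPM in NEG and 1.53, 2.18, 0.180 and 0.269 after dTAG (-0.19, SE 0.90), and in all reads it was lower in experiment 2 (0.419 to 0.823 CPM) than in experiment 1 (1.85 to 3.22 CPM) in every T3M-4 group.

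Among the inhibitors, TIMP2 had 57.9, 51.7, 71.3 and 90.5 T>C CPM in NEG and 17, 21.3, 13.8 and 21.2 after dTAG, a log2 difference of -1.90 (SE 0.24). No library overlapped, and the labelled share was 6.80 ± 1.25% in NEG and 2.2 ± 0.737% after dTAG (SD, n = 4). All reads of TIMP2 differed by -0.13 (SE 0.16). TIMP3 had 9.12, 9.60, 17.8 and 21.0 T>C CPM in NEG and 10.4, 8.06, 2.26 and 5.82 after dTAG (-1.12, SE 0.45). The 2 experiments differed for TIMP3: within experiment 1 alone the log2 difference was -0.01 (SE 0.30) and within experiment 2 alone -2.27 (SE 0.48). TIMP2 was lower in both, by -1.51 (SE 0.26) and -2.21 (SE 0.28). TIMP1 had 4.08 to 6.34 T>C CPM in NEG and 1.91 to 5.91 after dTAG (-0.24, SE 0.38). Thus in T>C CPM, MMP1, MMP10, MMP13 and PAPPA had all dTAG libraries above all NEG libraries, and TIMP2 had all below. The share of all genes without overlap was not computed. By adjusted p with edgeR, a different criterion, 0.834% of 13424 genes tested passed the threshold in that contrast, 0.0894% upward and 0.745% downward. The list was chosen on these libraries, so nothing is read from these separations.

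**Figure D3:**
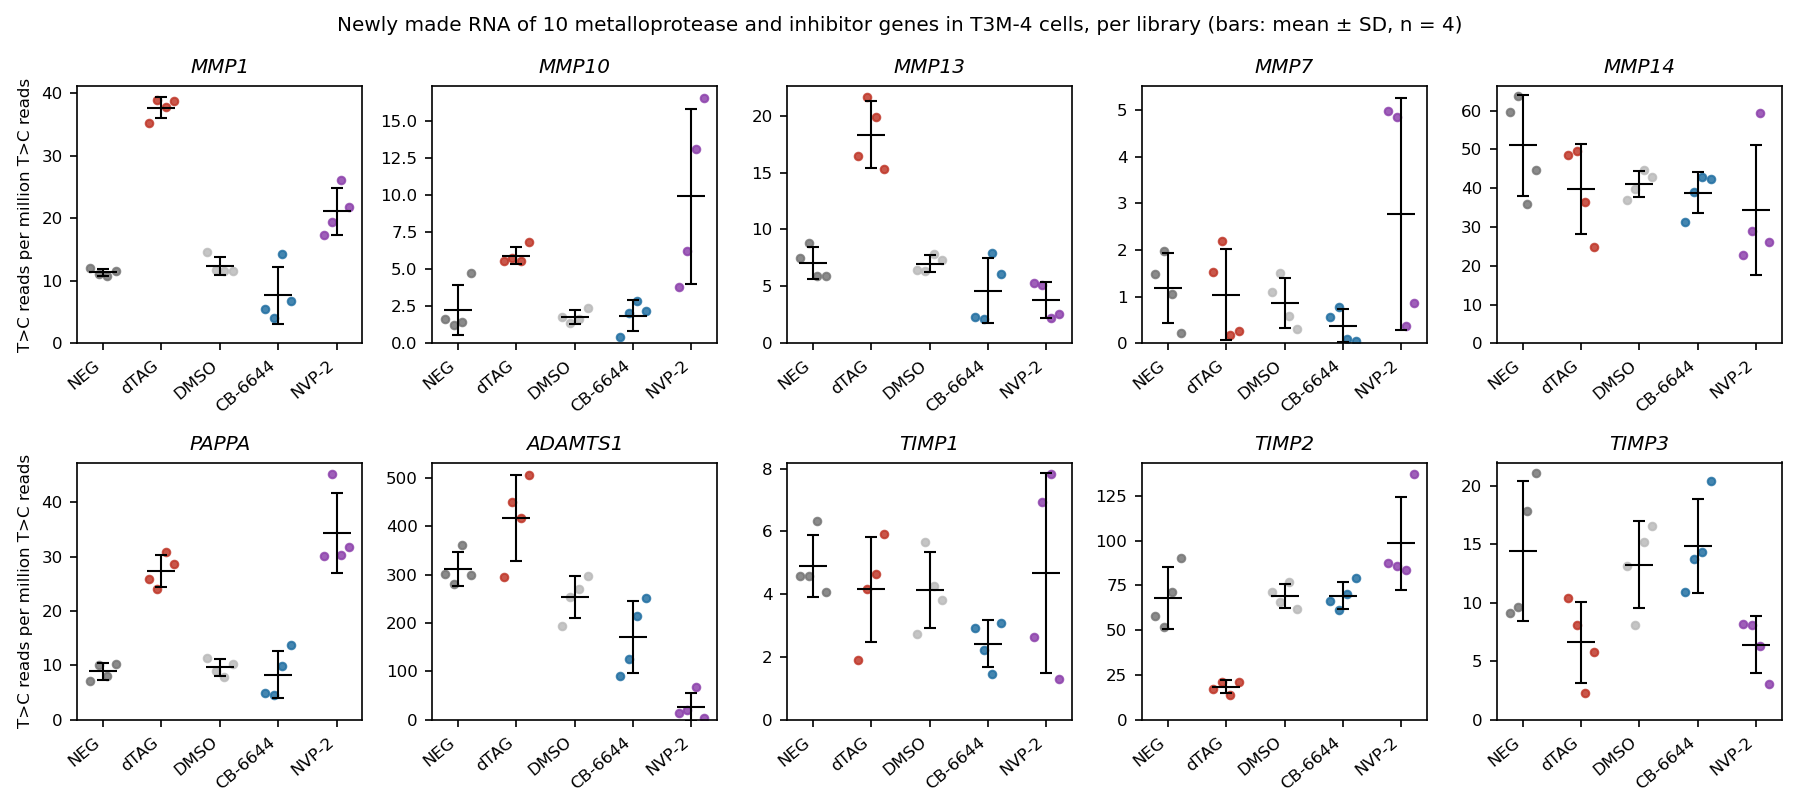
T>C CPM of the 10 genes in T3M-4, 1 point per library and 1 panel per gene with its own axis from 0; horizontal bars are the mean and whiskers the SD of 4 libraries. MMP1, MMP13, MMP10 and PAPPA are higher after dTAG than in NEG, TIMP2 is lower, and ADAMTS1 is lowest under NVP2.

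In AsPC-1 the same contrast was not used to choose the genes and could be tested for MMP7, MMP14, TIMP1 and TIMP2. Of these 4, TIMP2 fell and none rose, where 2.4% of 11696 genes passed the threshold and 1.94% passed it downward. TIMP2 had 154 to 298 T>C CPM in the NEG libraries, with a mean of 210.1 ± 43.4 (SD, n = 10), and 69.5 to 121 after dTAG, with a mean of 95.3 ± 16.6 (n = 10). All 10 dTAG libraries lay below all 10 NEG libraries, and the log2 difference was -1.13 (SE 0.13, edgeR adjusted p = 1.31e-05). Its labelled share was 3.91 ± 0.479% in NEG and 1.74 ± 0.265% after dTAG (9 libraries, since 1 all-reads column was not usable), also without overlap (log2 odds difference -1.21, SE 0.09, limma adjusted p = 2.35e-08). All reads of TIMP2 did not pass the threshold (-0.19, SE 0.11, edgeR adjusted p = 0.842), and neither did those of the other 4 members tested, where 0.797% of 13931 genes passed. Within the libraries of batch 1 the T>C difference was -0.95 (edgeR adjusted p = 0.000599) and within those of batch 2 -1.47 (edgeR adjusted p = 0.0525, where 16 of 12025 genes passed). With libraries summed to 1 value per experiment, 3 against 3, it was -1.04 (edgeR adjusted p = 0.152, where 0 of 13499 genes passed), and -1.06 (edgeR adjusted p = 0.0253) with the experiment as a block. Without dTAG 3.2 and NEG 3.2, the libraries that stood apart, it was -1.13 (edgeR adjusted p = 2.87e-05).

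**Figure D4:**
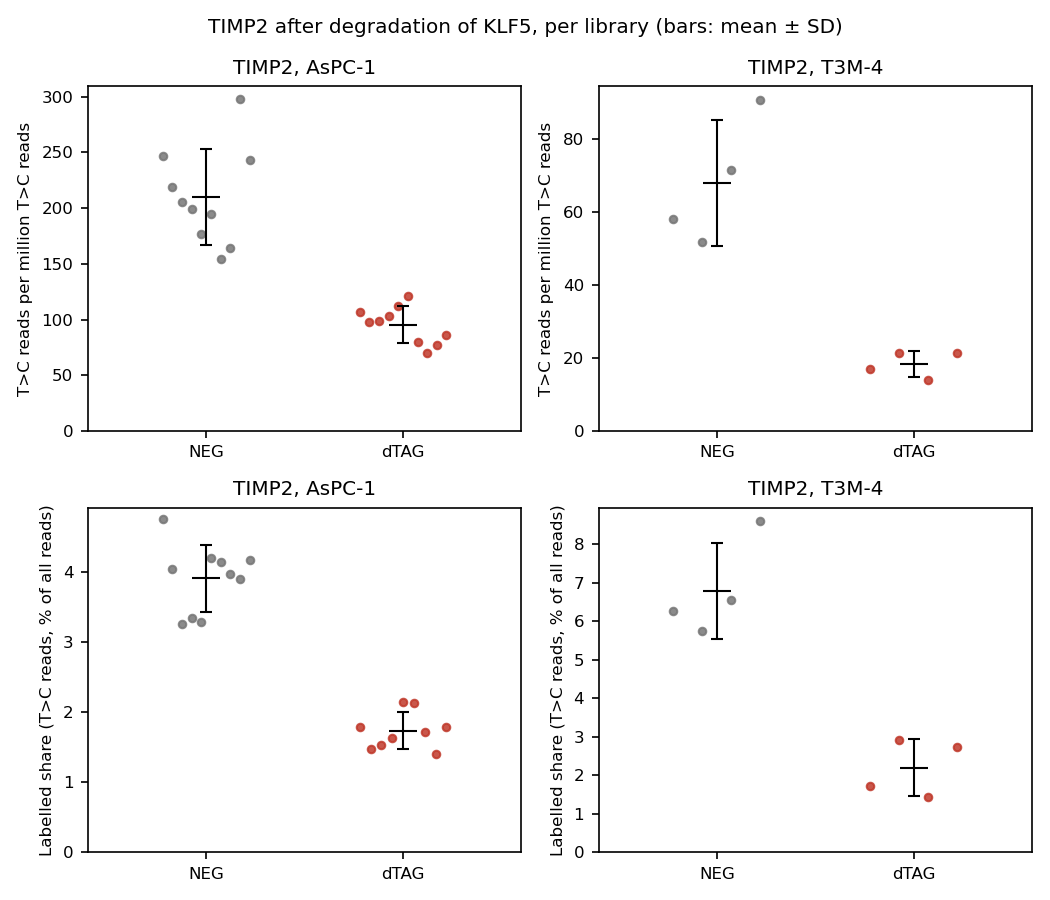
TIMP2 in NEG and dTAG libraries of AsPC-1 (left) and T3M-4 (right), as T>C CPM (top) and as labelled share in percent (bottom); points are libraries, bars the mean and whiskers the SD. No dTAG library reaches the lowest NEG library in any panel. The T3M-4 panels show a contrast that was used to choose the genes.

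MMP14, the protease that TIMP2 links to proMMP2, had 5.77 to 14.0 T>C CPM in NEG and 4.33 to 11.8 after dTAG in AsPC-1, which did not pass the threshold (-0.56, SE 0.21, edgeR adjusted p = 0.219). Its labelled share fell from 7.09 ± 1.32% (n = 10) to 4.52 ± 0.941% (n = 9), with a log2 odds difference of -0.69 (SE 0.16, limma adjusted p = 0.00264). Shares fell in this contrast for many genes, with 41.4% of 11761 genes past the threshold downward and a median log2 odds difference of -0.33 over all genes. MMP7 (0.20, SE 0.18) and TIMP1 (-0.02, SE 0.15) had overlapping T>C CPM in the 2 groups. MMP1 had 0 to 5 T>C reads per AsPC-1 library, and PAPPA, MMP10, MMP13, ADAMTS1 and TIMP3 were likewise too low to test, so their direction in that line was not detectable at this depth.

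Of the 63 related genes, 16 could be tested for T>C reads in AsPC-1 after dTAG, with 1 higher and 3 lower. Over all 11696 genes, 0.462% passed the threshold upward and 1.94% downward. IGFBP4 fell (-1.0, SE 0.17, edgeR adjusted p = 0.00091), as did ADAM15, a membrane disintegrin protease (-0.93, SE 0.21), and MMP15, a membrane-type MMP related to MMP14 (-1.13, SE 0.29). CD44, a hyaluronan receptor that can hold MMPs at the cell surface, rose (0.34, SE 0.08). In T3M-4, 25 could be tested and 0 passed the threshold with edgeR, where 0.834% of 13424 genes did. Of the 25, 4 had an unadjusted p under 0.05, as did 957 of the 13424. These 4, named after their values were seen, had log2 differences of 3.57 (SE 1.07) for the stromelysin MMP3, whose gene lies in the same cluster on chromosome 11, 0.40 (SE 0.17) for CD44, -0.95 (SE 0.30) for LRP1, a receptor that takes up proteases and TIMPs, and -0.75 (SE 0.32) for ADAM8.

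Over the 16 T3M-4 libraries without NVP2, the genes whose log2 T>C CPM followed that of MMP1 most closely among 14275 genes were MMP13 (Pearson r = 0.95), FOXA2 (0.94), CTSC (0.93), TGFBR2 (0.92) and PAPPA (0.91). Those nearest to PAPPA were FOXA2 (0.96), JAG1 (0.92), EFNA5 (0.92), KLF5 (0.91) and ERRFI1 (0.91). TIMP2 ran opposite to MMP1 (-0.84) and PAPPA (-0.83) and with TIMP3 (0.79). These values are a description, since the dTAG libraries set much of the spread.

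After CB6644 none of the members passed the threshold in any of the 3 contrasts. By edgeR 0 of all genes (0%) did either, while 569 of 13444 genes in T3M-4, 482 of 11649 in AsPC-1 at 4 h and 473 of 12204 at 12 h had an unadjusted p under 0.05; no member was among these for T>C reads. In T3M-4, MMP1 had 14.6, 11.7, 11.6 and 11.6 T>C CPM in DMSO and 5.54, 4.08, 14.3 and 6.80 after CB6644 (-0.68, SE 0.36, edgeR adjusted p = 0.994). CB6644 library 2.1 lay within the DMSO range and the other 3 below it. ADAMTS1 had 194 to 298 T>C CPM in DMSO and 91.0, 127, 215 and 251 after CB6644 (-0.57, SE 0.30), TIMP1 differed by -0.76 (SE 0.38) and MMP13 by -0.59 (SE 0.42). PAPPA (-0.22, SE 0.36), MMP10 (0.06, SE 0.58), MMP14 (-0.08, SE 0.17), TIMP2 (0.01, SE 0.16) and TIMP3 (0.17, SE 0.27) overlapped between the groups too. MMP7 (-1.19, SE 0.88) and ADAMTS1 overlapped over all libraries but not within an experiment. In experiment 1, MMP7 had 1.1 and 1.5 T>C CPM in DMSO against 0.566 and 0.783 after CB6644. In experiment 2 it had 0.581 and 0.305 against 0.0971 and 0.0562. The CB6644 values of MMP7 in experiment 2 rest on 2 and 1 T>C reads. Values within each experiment are not given here for all members. The labelled share of MMP1 was 6.12 ± 1.90% in DMSO and 3.23 ± 0.784% after CB6644 without overlap (SD, n = 4), which missed the threshold over all genes with limma (adjusted p = 1). Shares of MMP7 (7.74 ± 2.1% and 3.13 ± 1.62%) and TIMP1 (3.04 ± 0.979% and 1.93 ± 0.0997%) did not overlap either and missed it too, where 0% of all genes passed. How many of all genes had shares without overlap, or T>C CPM without overlap within each experiment, was not computed. Nothing is read from these separations.

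In AsPC-1 at 4 h, TIMP2 had 157 to 256 T>C CPM in DMSO and 156 to 207 after CB6644 (-0.18, SE 0.15), and TIMP1 13.5 to 18.1 and 11.4 to 25.9 (0.41, SE 0.22). The labelled share of TIMP2 was 4.24 ± 0.505% and 3.21 ± 0.400% (SD, n = 5; log2 odds difference -0.42, SE 0.12, limma adjusted p = 0.0731), where 3.06% of genes passed the threshold and the median over all genes was -0.27. Leaving out DMSO library 2.2 moved this past the threshold (-0.48, limma adjusted p = 0.0486). Of the 4 members tested for labelled share, 2 had an unadjusted p under 0.05 with limma, as did 2847 of 11649 genes. At 12 h the T>C differences were -0.45 (SE 0.26) for MMP7, 0.10 (SE 0.57) for MMP14, -0.18 (SE 0.35) for TIMP1 and 0.08 (SE 0.31) for TIMP2, and without CB6644 12 h 2 and DMSO 12 h 2 none passed the threshold either. None of the 17 to 24 related genes tested passed it in the 3 contrasts with edgeR. The test of whether the CB6644 response differed between lines gave 0 members and 0 of 13963 genes with edgeR, where 511 genes had an unadjusted p under 0.05, 1 of them a member (TIMP1, adjusted p = 1).

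CDK9 inhibition by NVP2 cut labelling as a whole, so T>C CPM there compares genes within a much smaller pool of new RNA. In T3M-4, ADAMTS1 fell and MMP10 and PAPPA rose relative to other new RNA, where 26.7% of 12242 genes passed the threshold, 12.4% upward and 14.2% downward. ADAMTS1 had 194, 254, 270 and 298 T>C CPM in DMSO and 14.1, 19.6, 67.9 and 3.04 after NVP2, a log2 difference of -3.23 (SE 0.71, edgeR adjusted p = 0.00762). Every NVP2 library lay below every DMSO library, with a wide spread among them. PAPPA had 11.4, 8.95, 7.87 and 10.3 in DMSO and 30.2, 45.2, 30.2 and 31.8 after NVP2 (1.88, SE 0.34, edgeR adjusted p = 0.00293), and MMP10 had 1.33 to 2.39 and 3.81 to 16.5 (2.49, SE 0.61, edgeR adjusted p = 0.0126). Scaled by all reads instead, both turned downward, to -0.94 for PAPPA and -0.48 for MMP10. MMP1 had 11.6 to 14.6 and 17.3 to 26.1 T>C CPM (0.82, SE 0.34, edgeR adjusted p = 0.0988), and -2.10 when scaled by all reads. The other members had log2 differences of -0.99 (TIMP3) to 1.75 (MMP7) and did not pass the threshold. Within experiment 2 alone PAPPA (1.81, edgeR adjusted p = 0.0567) and ADAMTS1 (-2.96, edgeR adjusted p = 0.154) missed the threshold, as MMP10 did within experiment 1 (1.78, edgeR adjusted p = 0.078), and summed to 1 value per experiment 0 members passed, where 0 of 13808 genes did. With the sums and the experiment as a block, 2077 genes passed, among them PAPPA (1.82, edgeR adjusted p = 0.0457) and ADAMTS1 (-3.29, edgeR adjusted p = 0.000299).

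The labelled share fell for 9 of the 10 genes after NVP2 in T3M-4, where 94% of all genes passed the threshold downward, with a median log2 odds difference of -3.62. ADAMTS1 went from 66.6 ± 4.10% to 2.29 ± 2.17% (-6.99, SE 0.68, limma adjusted p = 7.02e-06), the largest fall among the 10 members, followed by TIMP3 from 19 ± 0.736% to 1.11 ± 0.593% (-4.52, SE 0.52). MMP13 (-3.97, SE 0.59), MMP14 (-3.75, SE 0.32) and TIMP1 (-3.45, SE 0.68) lay near the median of all genes. TIMP2 (-2.45, SE 0.29), MMP1 (-2.31, SE 0.46), PAPPA (-1.90, SE 0.39) and MMP7 (-1.78, SE 0.79, limma adjusted p = 0.0491) lay above it, and MMP10 did not pass the threshold (-1.16, SE 0.60, limma adjusted p = 0.087). The call for MMP7 was lost without NVP2 library 2.1 (limma adjusted p = 0.102) or 2.2 (limma adjusted p = 0.0726). PAPPA kept a share of 9.30 to 17.7% under NVP2. In all reads 1 member passed, ADAMTS1, at 48.8 ± 2.68 CPM in DMSO and 18.6 ± 5.06 after NVP2 (-1.38, SE 0.19, edgeR adjusted p = 0.00447), where 5.16% of genes passed.

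In AsPC-1, MMP7 and TIMP1 rose relative to other new RNA after NVP2 when set against DMSO at 4 h, and MMP7 also when set against controls of the same batch, where in the first of these contrasts 30.5% of 11498 genes passed the threshold, 12.9% upward. MMP7 had 26.8, 18.3, 49.4, 14.4 and 22.1 T>C CPM in DMSO and 114, 62.9, 58.6 and 51.7 after NVP2 (1.53, SE 0.38, edgeR adjusted p = 0.0109), without overlap. TIMP1 had 13.5 to 18.1 and 15.8 to 40.8 (1.00, SE 0.31, edgeR adjusted p = 0.0278), with overlap. Scaled by all reads both turned downward, to -1.45 and -2.03. The NVP2 libraries were all of batch 2 and the DMSO 4 h libraries of batch 1. Against batch 2 controls, MMP7 differed by 1.83 from NEG of experiment 3 (edgeR adjusted p = 0.00231) and by 1.79 from DMSO at 12 h (edgeR adjusted p = 0.00644). TIMP1 missed the threshold in both, with 0.70 (edgeR adjusted p = 0.188) and 0.59 (edgeR adjusted p = 0.296). The level of MMP7 also differed between 3 clusters of the AsPC-1 libraries made on other genes, with medians of 35.7, 47.9 and 22.1 CPM of all reads in control libraries of clusters A, B and C. NVP2 libraries fell in A and B, and 2 of the 5 DMSO 4 h libraries in C. With the cluster as a block, MMP7 (1.24, edgeR adjusted p = 0.0657) and TIMP1 (1.0, edgeR adjusted p = 0.0785) missed the threshold, where 2685 of 12451 genes passed. Summed to 1 value per experiment they missed it too, at 1.67 (edgeR adjusted p = 0.0621) and 0.97 (edgeR adjusted p = 0.164), where 1024 of 12320 genes passed. TIMP2 had 157 to 256 and 270 to 304 T>C CPM (0.54, SE 0.20, edgeR adjusted p = 0.0564), and MMP14 6.12 to 13.4 and 1.4 to 7.67 (-1.09, SE 0.50, edgeR adjusted p = 0.119). The call for TIMP1 was lost without NVP2 library 2.1 or any of DMSO libraries 1.1, 1.2 and 1.3 (edgeR adjusted p = 0.0516 to 0.0758), and MMP14 passed without NVP2 library 1.1 (edgeR adjusted p = 0.0426) and TIMP2 without DMSO library 1.1 (edgeR adjusted p = 0.043). Without NVP2 1.2, which stood apart, MMP7 (edgeR adjusted p = 0.0195) and TIMP1 (edgeR adjusted p = 0.05 after rounding) were the 2 members that passed. The labelled share of all 4 fell, with log2 odds differences of -2.09 (MMP7), -3.96 (MMP14), -2.66 (TIMP1) and -2.58 (TIMP2), where 95.8% of genes passed the threshold downward and the median was -3.42.

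**Figure D5:**
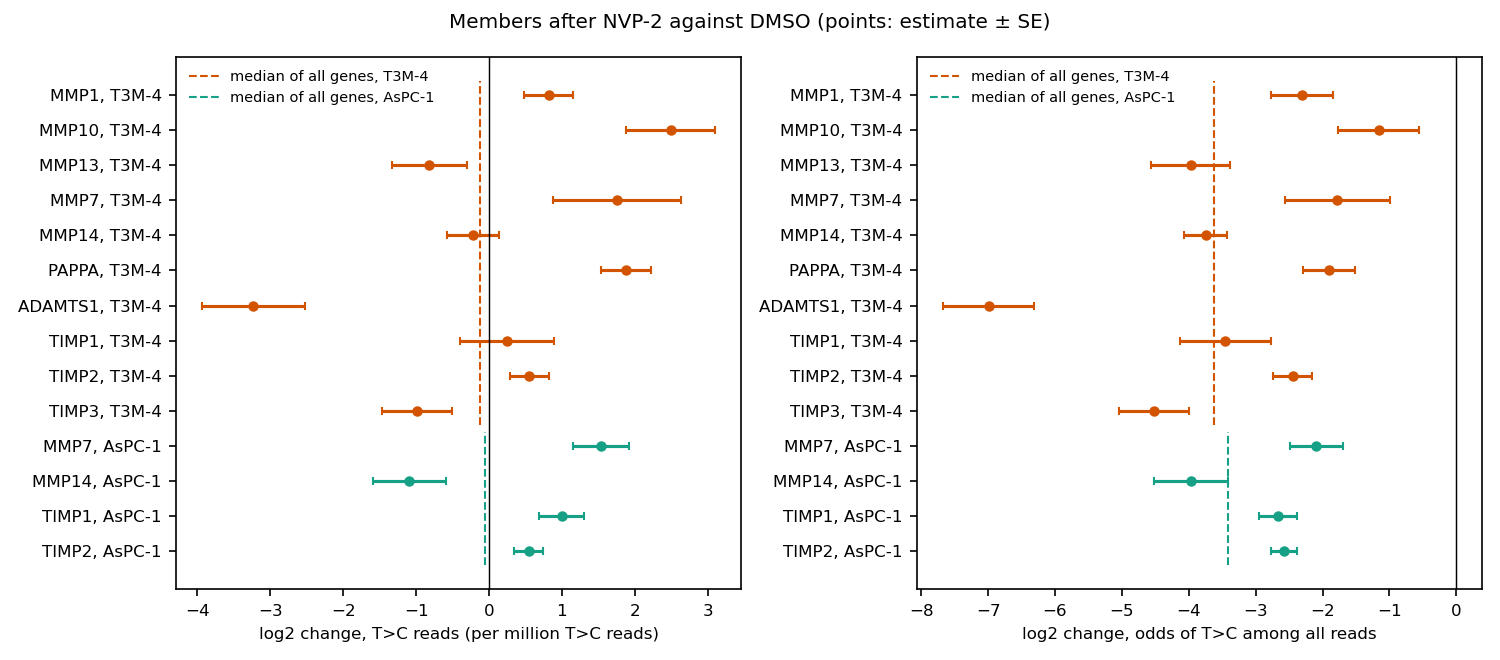
Log2 difference after NVP2 against DMSO in T>C CPM (left) and in the odds of a T>C read among all reads of a gene (right), for the 10 genes in T3M-4 (orange) and the 4 that could be tested in AsPC-1 (green); points are estimates, whiskers the SE, and dashed lines the median of all genes. ADAMTS1 lies lowest in both panels, and every point on the right is below 0.

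Relative to other new RNA, 5 of 20 related genes rose and 2 fell in T3M-4 after NVP2 in T>C CPM. Over all genes, 12.4% passed the threshold upward and 14.2% downward. Among the 20 were the protease receptor LRP1 (2.74, SE 0.43), the gelatinase MMP9 (3.59, SE 0.74), the sheddases ADAM9 (1.44, SE 0.37), ADAM17 (1.08, SE 0.29) and ADAM10 (1.4, SE 0.44), and STC2, a stanniocalcin that inhibits PAPPA (-2.60, SE 0.30). In labelled share 0 of the 20 rose and 16 fell, where 94% of all genes fell. In AsPC-1, 4 of 16 rose, LRP1 (2.26, SE 0.44), ADAM9 (1.73, SE 0.27), ADAM10 (1.6, SE 0.32) and BSG (1.47, SE 0.32), and ADAMTS15 fell (-1.46, SE 0.35). Over all genes there, 12.9% passed the threshold upward and 17.6% downward. ADAMTS15 also fell in all reads (-3.23, SE 0.36, edgeR adjusted p = 0.000388). In this AsPC-1 contrast treatment and batch coincide, and the related genes were not set against batch 2 controls. In labelled share 0 of the 16 rose and 16 fell, where 95.8% of all genes fell. The test of whether the NVP2 response differed between lines passed for 1 member, ADAMTS1 (edgeR adjusted p = 0.0206), where 0.851% of 13159 genes passed. That call rested on AsPC-1 NVP2 library 1.2, which held all 21 T>C reads of the gene in the 9 AsPC-1 libraries tested, and without it no member passed (edgeR adjusted p = 1).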

How the data were processed

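Processed SLAM-seq tables of 62 libraries were used. The authors aligned the single-end 3′ end reads to hg38 and counted them with slamdunk in the 3′UTR exons of GENCODE v44, added up by gene. They deposited raw counts, 1 table of T>C reads and 1 of all reads for each line, with no spike-in. The members and gene lists were chosen with earlier results of these data known. Members that could be tested are named in each contrast, apart from MMP7 and MMP14 after CB6644 at 4 h in AsPC-1. Related genes are given by count and, among those past the threshold, at most 6 of smallest p, with exceptions named in the text. In the table of all reads, the column of AsPC-1 dTAG library 3.1 held the T>C counts of DMSO 12 h library 2 and was left out (1 column not used), as were 17 empty columns. CPM are reads per 1000000 reads of that kind in the library. Library sizes were summed over genes that passed the filter and scaled by TMM within each line. T>C CPM of KLF5 alone use plain library totals.

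T>C and all-reads counts were tested over all genes with edgeR 4.0.16 (filterByExpr, TMM, quasi-likelihood) in R 4.3.3. Log2 odds of T>C reads (prior 0.5) were tested with limma 3.58.1 for genes that passed the T>C filter. Benjamini-Hochberg adjusted p under 0.05 passed the threshold. Line differences were interaction terms, tested over libraries of both lines. DESeq2 1.42.0 was an alternative. Fits were tested on simulated data. Interval limits use a 0.95 level and a floor of 3 reads. Same-numbered libraries deviated together in AsPC-1 dTAG and NEG (correlations 0.41, 0.63 and 0.47 for experiments 1 to 3) and in the 12 h groups (0.33 to 0.65), and in T3M-4 the number is the labelled batch, so these were treated as paired in the replicate block.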

Additional observations from a re-analysis of the deposited data

Results flagged for a closer look

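In 9 of 75 sets of 1 gene in 1 group, the highest or lowest library stood apart from the others in T>C CPM by Dixon's test; chance gives about 1 in 20. In T3M-4 these were MMP1 in DMSO 1.1 at 14.6 (others 11.6 to 11.7), MMP10 in dTAG 2.2 at 6.80 (others 5.55 to 5.75) and in NEG 2.2 at 4.76 (others 1.21 to 1.63), and, under NVP2, MMP14 in library 2.1 at 59.3 (others 22.9 to 29.1), PAPPA in library 1.2 at 45.2 (others 30.2 to 31.8) and TIMP2 in library 2.2 at 137 (others 83.6 to 87.7). In AsPC-1 they were MMP7 in DMSO 12 h 4 at 34 (others 17.6 to 18.5), MMP14 in CB6644 4 h 1.1 at 18.7 (others 5.63 to 8.93) and TIMP2 in NVP2 2.1, the lowest at 270 (the others at 304).

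The response of ADAMTS1 to NVP2 differed between the lines by the interaction test (edgeR adjusted p = 0.0206). The gene has next to no reads in AsPC-1, and the call rested on 1 library.

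Genes at or near 0 in AsPC-1 had T>C reads in 5 libraries of batch 2. Summed over MMP10, MMP13, PAPPA, ADAMTS1 and TIMP3, there were 51 T>C reads in DMSO 12 h 2, 26 in dTAG 3.2, 24 in NVP2 1.2, 12 in NEG 3.2 and 11 in CB6644 12 h 2, against at most 2 in the other 37 libraries. All reads of these genes were 25 to 73 in the 5 libraries and at most 11 in the others. ADAMTS1 gave most of them, with 50 T>C reads in DMSO 12 h 2. Their source was not tested.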

How the results depend on the processing

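Counts of members past the threshold for T>C reads depended on the scale and the unit of replication. For dTAG in AsPC-1 the 1 member (TIMP2) became 2 when T>C reads were scaled by all reads (1190 of 11761 genes passed) and 0 in all reads (111 of 13931), in batch 2 alone (16 of 12025) and with libraries summed per experiment (0 of 13499). For NVP2 in AsPC-1 the 2 members became 4 when scaled by all reads, all of them lower (10658 of 11498 genes), 0 in all reads (1667 of 14095), summed per experiment (1024 of 12320) or with the 3 clusters of AsPC-1 libraries as a block (2685 of 12451), and 1, MMP7, summed per experiment with the replicate block (1347 of 12320), against NEG of experiment 3 (3180 of 11209) and against DMSO 12 h (2828 of 11293); leaving out 1 library gave 1 to 3. For NVP2 in T3M-4 the 3 members became 7 when scaled by all reads (10536 of 12242 genes), 1 in all reads (807 of 15653) and in batch 2 alone (2369 of 12254), and 0 summed per experiment (0 of 13808). Leaving out 1 library gave 0 to 1 members for the labelled share after CB6644 at 4 h in AsPC-1, 8 to 9 for the labelled share after NVP2 in T3M-4, and 0 to 1 for the line difference of NVP2. For dTAG in T3M-4, MMP1 had 1.79 scaled by all reads and 0.26 in all reads, and PAPPA 1.09 in all reads; without 1 library they ran from 1.70 to 1.76 and from 1.52 to 1.70.

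Signs turned under NVP2. Scaled by all reads, AsPC-1 gave -1.45 (MMP7), -2.03 (TIMP1) and -2.47 (TIMP2), and T3M-4 -2.10 (MMP1), -0.48 (MMP10), -0.94 (PAPPA), -2.60 (TIMP1) and -2.34 (TIMP2), by construction, since NVP2 lowers the T>C total. In T3M-4, all reads gave 0.11 (MMP13), 0.42 (MMP14) and 0.31 (TIMP3), batch 2 alone 0.0060 (MMP14), and TIMP1 ran from -0.13 to 0.51 without 1 NVP2 library (-0.13 without 2.1 and -0.04 without 1.2); the cause was not tested.

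With the replicate block no count of members changed, and TIMP2 in AsPC-1 after dTAG was -1.15. The block raised the genes called there from 281 to 438, those of dTAG in T3M-4 from 112 to 346 and those of the NVP2 line difference from 112 to 212. Same-numbered libraries did not pair for NVP2 in AsPC-1 (correlation -0.0045). Leaving out the 5 AsPC-1 libraries that stood apart was chosen after seeing the data and changed no count of members in the dTAG, CB6644 12 h and NVP2 contrasts of that line, while the NVP2 line difference went from 1 to 0 without NVP2 1.2. The cause of the other changes was not tested. MMP7 had 1 to 68 T>C reads per T3M-4 library.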
